A study of Mus musculus with 10 samples.

Results

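The immediate early transcription factors of the AP-1 and EGR families were followed across 5 groups of mouse B-lineage cells on one-colour Agilent arrays. The members were 10 genes, the FOS-type genes Fos, Fosb and Fosl2, the JUN-type genes Jun, Junb and Jund, the zinc finger genes Egr1, Egr2 and Egr3, and the stress-induced bZIP gene Atf3. They were chosen by name: every non-control probe whose gene name was one of the 10 was taken, which gave 13 probes of the 41174 on the array and 10 of 27191 genes. A probe was kept for testing where, in at least 1 group, the scanner software marked it well above background on both arrays. Of the 13 member probes 11 were kept, and each of the 10 genes had at least 1 kept probe.

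The tested material was leukemia from the lymph nodes of Ebf1+/- Pax5+/- mice 686, 713 and 760 (dHet-B-ALL), where dHet stands for the double heterozygote. The first control was dHet-proB, pro-B cells of Ebf1+/- Pax5+/- Rag2-/- genotype that grew from c-Kit-positive fetal liver cells on OP9 feeder cells with 5 ng/ml IL-7, 10 ng/ml Flt3 ligand and 10 ng/ml stem cell factor. The second control was wt-proB, Ebf1+/+ Pax5+/+ cells of Fraction BC sorted from the bone marrow of control mice. Each of the 5 groups had 2 arrays, so there were 6 leukemia arrays from 3 mice, 2 dHet-proB arrays and 2 wt-proB arrays. Tissue, culture, sorting, Rag2 genotype and animal age, which is not given in the sources used here, can differ together between the groups and cannot be told apart from disease or from Ebf1 and Pax5 dose. The labels do not say what a replicate is, so p-values measure the spread between these samples, which may be technical. In bulk RNA, fewer cells of a type and less RNA per cell cannot be told apart.

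Several arrays stood apart before any member was considered. The leukemia replicates 1 lay on slide 1, scanned on the first scan day, the leukemia replicates 2 on slide 2 and all 4 pro-B arrays on slide 3, and in a comparison of leukemias with pro-B cells the group therefore cannot be separated from the slide. The share of probes well above background was 35.7% for leukemia 686 replicate 1 and 42.1% to 52.4% on the other 9 arrays. Y-linked and Xist signals placed the 2 dHet-proB arrays in different sexes, and this was the only one of the 5 groups whose arrays differed. The defining B-lineage genes Cd79b and Vpreb1 were well above background on all 10 arrays, whereas Pax5 reached that mark on 2 of 6 leukemia arrays and on all 4 pro-B arrays.

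Immediate early genes are transcribed within minutes of a stimulus, without new protein synthesis, when MAP kinases act on factors already bound at their promoters, chiefly serum response factor with its ternary complex partners at CArG boxes and CREB-type proteins at cAMP response elements. FOS proteins need a JUN partner to bind DNA as AP-1, whereas JUN proteins can also pair among themselves, and EGR proteins bind GC-rich sites through zinc fingers. In B-lineage cells these genes are known as early targets of pre-B-cell and B-cell receptor signalling, and they are also known to be induced when tissue is dissociated and cells are sorted.

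The promoters are shown because most of the members moved together, and because elements through which this class of gene is switched on can lie before the start site. Windows of 250 bases before the annotated start were matched by symbol in the RefSeq table of GRCm38.p6 for 8 of the 10 genes, and Egr1 and Egr3 were not matched. Both strands were searched, and bases further upstream were not. Egr2 had 5 windows and each other matched gene 1, whereas the shares given beside the gene counts are of windows. The core of the cAMP response element, TGACG, was present in the windows of Fos, Fosb, Junb, Egr2 and Atf3, or 5 of 8 genes, against 17.8% of all 32851 windows. A CArG box lay only in the window of Egr2 among the 8, in 4 of its 5 annotated windows, against 1.47% of all windows. The EGR site, GCGTGGGCG or GCGGGGGCG, occurred in the windows of Fosb and Fosl2, against 3.06% of all windows. TATAAA occurred in the Fos window, against 12.4% of all windows. No window of the 8 held the full element TGACGTCA, which contains the core and occurred in 1.55% of all windows, or the AP-1 site TGACTCA or TGAGTCA, which occurred in 4.46%. In the sequences below, written from 5′ to 3′ on the gene's strand, capitals mark the CRE core or its reverse complement CGTCA, the CArG box of Egr2 and the TATA box of Fos. Each of the first 4 ends at the base before the start.
Fos, chr12:85473770-85473889, plus strand: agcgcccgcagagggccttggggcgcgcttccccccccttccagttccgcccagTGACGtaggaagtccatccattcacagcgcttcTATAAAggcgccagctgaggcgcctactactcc
Fosb, chr7:19310046-19310165, minus strand: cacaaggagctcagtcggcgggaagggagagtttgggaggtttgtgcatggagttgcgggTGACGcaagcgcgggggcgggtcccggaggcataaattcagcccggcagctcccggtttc
Junb, chr8:84978749-84978868, minus strand: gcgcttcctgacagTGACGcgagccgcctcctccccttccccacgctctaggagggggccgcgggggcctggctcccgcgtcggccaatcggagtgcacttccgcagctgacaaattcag
Atf3, chr1:191183334-191183453, minus strand: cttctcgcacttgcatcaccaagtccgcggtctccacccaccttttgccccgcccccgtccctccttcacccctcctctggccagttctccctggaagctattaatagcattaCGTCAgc
Egr2, chr10:67537793-67537822, plus strand: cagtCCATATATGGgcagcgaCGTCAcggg
The core closest to its start was that of Atf3, 3 bases before it. In Fos the TATA box ended 28 bases before the start and the nearer of its 2 cores 62 bases before it. A match is a description of letters in a window, and binding was not measured.

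In leukemias against wt-proB, 9 of the 10 genes fell, none rose, and Fosl2 did not pass the test. The background is high in this comparison: 27.6% of the 14455 genes tested fell and 31.3% rose at an adjusted p under 0.05 in limma's moderated test, with 3 mouse means against 2 arrays. The counts at an unadjusted p under 0.05 were likewise 9 lower and 0 higher. Fos, Fosb and Egr3 passed the detection filter only through wt-proB, the group where they are high, so a difference at these 3 is built into their being kept (adjusted p with no filter 0.000245, 0.00119 and 0.00127). The other 6 genes that fell passed the filter through more than 1 group. The median change of the 10 genes was -3.54 on the log2 scale, against 0.06 over all genes tested. The same 9 genes had every leukemia array below both wt-proB arrays, and 27.7% of all genes did. The test gave 9 lower genes whether only the slide 1 or only the slide 2 leukemia arrays were used, and neither choice separates the group from the slide.

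**Figure D1:**
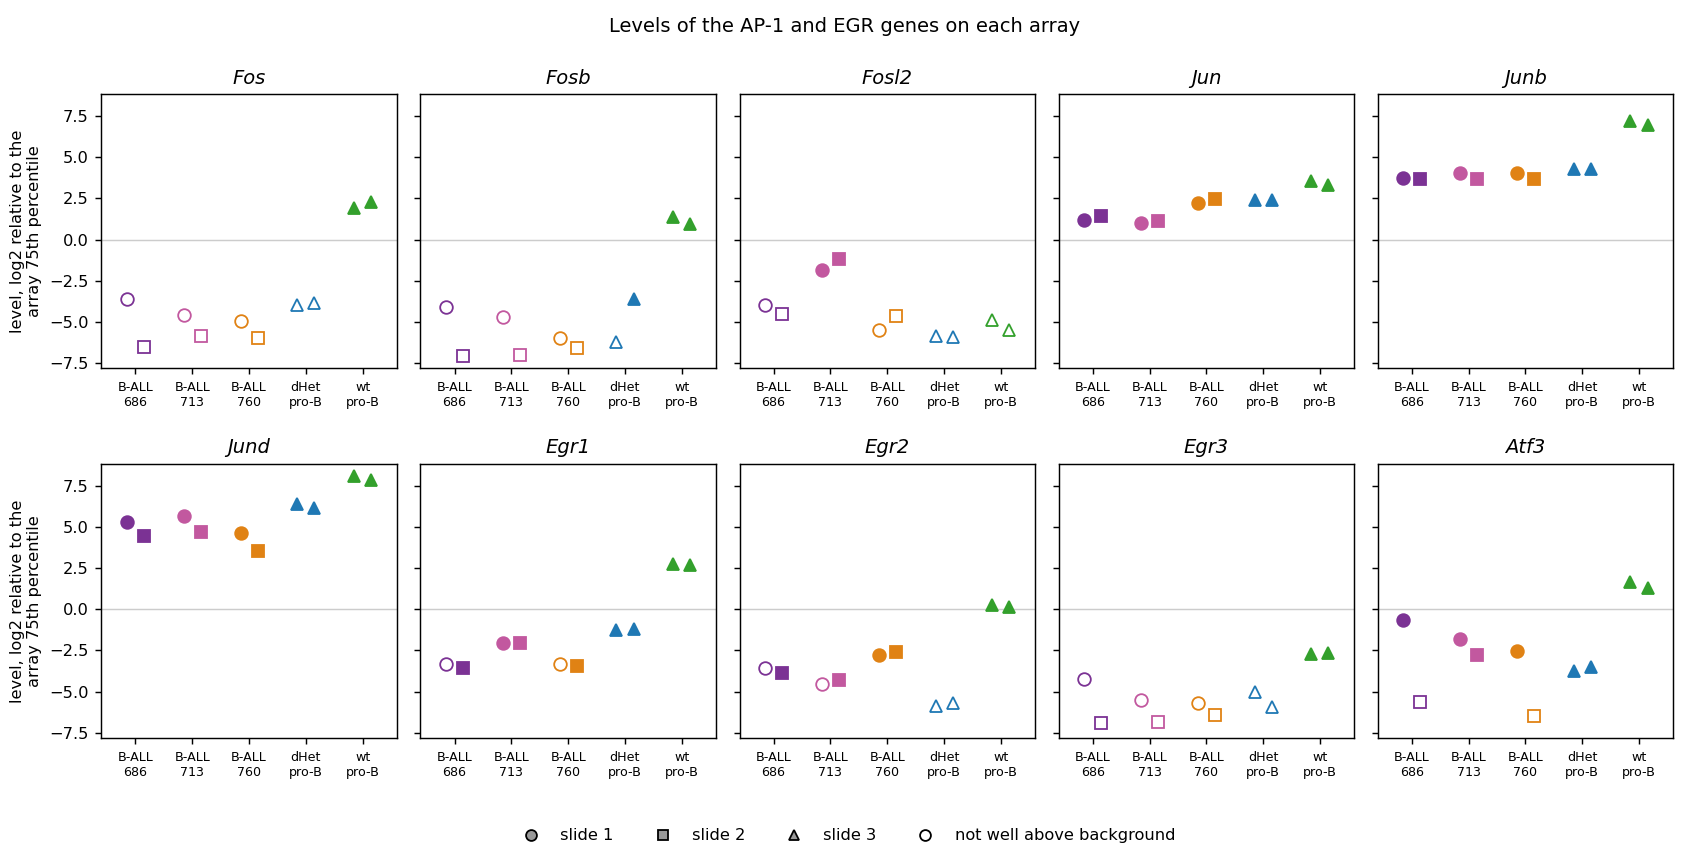
Level of each of the 10 genes on every array, as log2 of the processed signal minus the array's 75th percentile, with 1 panel per gene and the groups from leukemias to dHet-proB to wt-proB along the horizontal axis. Filled symbols were well above background and open ones were not, circles are slide 1, squares slide 2 and triangles slide 3. For all genes but Fosl2 the wt-proB arrays were the highest.

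Levels below are log2 values of the processed signal relative to the array's 75th percentile, so 0 marks a spot as bright as that percentile, and levels of different probes are not set against each other. Fos, the founding partner of JUN in AP-1, was measured by a 60-base probe at chr12:86817900-86817959 of mm9, the build in the file headers, with 10 spots per array. Its level over the 6 leukemia arrays was -6.49 at the lowest, -5.42 at the median and -3.59 at the highest, none well above background. It was -3.96 and -3.85 on the dHet-proB arrays, also not well above background, and 1.90 and 2.28 on the wt-proB arrays, both well above background. A probe counted as well above background on an array when most of its spots were, and by that rule Fos was so on the wt-proB arrays and on no other array. With undetected arrays set at the lowest detectable level of the array, Fos was at least 61.4-fold lower in leukemias and at least 63.8-fold lower in dHet-proB than in wt-proB, with adjusted p = 0.000135 and 0.00337. The 10 spots agreed closely on the wt-proB arrays, with an SD of 0.039 and 0.07 in log2, against 0.265 to 0.74 on the leukemia arrays. In dHet-proB 3 and 4 of the 10 Fos spots were well above background, against at most 2 on any leukemia array.

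Fosb, a FOS protein that pairs with JUN proteins, was measured by a 60-base probe with 1 spot per array at chr7:19888477-19888536. Leukemia levels were -7.05 at the lowest, -6.28 at the median and -4.08 at the highest, none well above background. The dHet-proB levels were -6.19, not well above background, and -3.63, well above background. The wt-proB levels were 1.39 and 0.97, both well above background and above every other array. Fosb was at least 32.7-fold lower in leukemias than in wt-proB (adjusted p = 0.000753). The dHet-proB to wt-proB change was -6.09 ± 1.23 (SE) on the log2 scale (adjusted p = 0.011, 2 arrays each), or -5 with the undetected array set at its lowest detectable level. It did not pass without dHet-proB replicate 1 (adjusted p = 0.0742), without wt-proB replicate 1 (0.0718) or without wt-proB replicate 2 (0.0568).

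Fosl2, which encodes FRA-2, was the exception among the 10. At its kept probe (chr5:32459624-32459683) leukemia 713 had -1.87 and -1.19, both well above background, whereas leukemia 686 had -3.97 and -4.53 and leukemia 760 had -5.46 and -4.61. The levels in dHet-proB were -5.85 and -5.94 and in wt-proB -4.87 and -5.47, and none of these 8 values outside leukemia 713 was well above background. At this probe, which passed the filter only through leukemia 713, a signal was measurable in 1 leukemia of 3 and in neither pro-B group. Its change in leukemias against wt-proB was 1.56 ± 1.00 (SE) with adjusted p = 0.223. The second Fosl2 probe (chr5:32455088-32455147) was not kept for testing: it was well above background on replicate 2 of leukemia 713 at -2.99 and on replicate 2 of leukemia 760 at -4.05, and lay between -5.09 and -4.04 on the other 8 arrays.

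The JUN-type genes were the members measurable everywhere, well above background on 10 of 10 arrays. Jun, the AP-1 partner of FOS proteins and target of JNK kinases, had leukemia levels of 1.03 at the lowest, 1.34 at the median and 2.49 at the highest (10 spots per array, chr4:94715864-94715923). It had 2.40 and 2.43 in dHet-proB and 3.56 and 3.30 in wt-proB. The leukemias lay below wt-proB without overlap, 3.59-fold on average (log2 change -1.85 ± 0.38 SE, adjusted p = 0.00838), and overlapped dHet-proB, where the change of -0.83 ± 0.38 did not pass (adjusted p = 0.123). In dHet-proB Jun was 2.01-fold lower than in wt-proB (adjusted p = 0.009). Without wt-proB replicate 1 the adjusted p was 0.0609 for leukemias and 0.0794 for dHet-proB, and without dHet-proB replicate 1 or 2 it was 0.0691 and 0.0603 for dHet-proB.

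Junb, a JUN protein often set against Jun in cell cycle control, was measured by 2 probes that share 22 bases. At the brighter one (chr8:87500881-87500940) the leukemia levels were 3.67 at the lowest, 3.71 at the median and 4.05 at the highest. The dHet-proB levels were 4.28 and 4.31 and the wt-proB levels 7.21 and 6.93. The 3 kinds of sample stood in that order with no overlap, and the gap from dHet-proB to wt-proB was far wider than the gap from leukemias to dHet-proB. Junb was 9.6-fold lower in leukemias than in wt-proB (-3.26 ± 0.14 SE, adjusted p = 0.000177), 1.4-fold lower than in dHet-proB (-0.48 ± 0.14, adjusted p = 0.0346) and 6.86-fold lower in dHet-proB than in wt-proB (-2.78 ± 0.22, adjusted p = 0.000233). The second probe (chr8:87500843-87500902) gave log2 changes of -3.50, -0.59 and -2.91 for the same 3 comparisons. The smallest of the 3 differences, leukemias against dHet-proB, did not pass under 12 of 28 alternative settings, among them either dHet-proB array left out (adjusted p = 0.148 and 0.165).

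Jund, a JUN protein that is usually expressed at rest rather than only after a stimulus, also followed that order (chr8:73224436-73224495). Its leukemia levels were 3.56 at the lowest, 4.67 at the median and 5.65 at the highest, against 6.39 and 6.14 in dHet-proB and 8.06 and 7.84 in wt-proB. No leukemia array reached a dHet-proB array and no dHet-proB array reached a wt-proB array. The fold differences were 9.41 lower in leukemias than in wt-proB (adjusted p = 0.000718), 2.92 lower than in dHet-proB (adjusted p = 0.0119) and 3.22 lower in dHet-proB than in wt-proB (adjusted p = 0.0378). The last of these did not pass with any 1 of the 4 pro-B arrays left out (adjusted p between 0.125 and 0.174), and the leukemia to dHet-proB difference did not pass with either dHet-proB array left out (adjusted p = 0.0815 and 0.0561). Slide moved with this gene inside the leukemias: the change against wt-proB was -2.75 with slide 1 arrays and -3.72 with slide 2 arrays.

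Egr1, the zinc finger factor most used as a marker of MAP kinase signalling, was detected well above background on 4 of the 6 leukemia arrays and on all 4 pro-B arrays (chr18:35024395-35024454). Its leukemia levels were -3.55 at the lowest, -3.33 at the median and -2.05 at the highest, against -1.23 and -1.18 in dHet-proB and 2.73 and 2.71 in wt-proB. The 3 kinds of sample again did not overlap. Egr1 was 51-fold lower in leukemias than in wt-proB (-5.67 ± 0.43 SE, adjusted p = 0.000363) and 15.2-fold lower in dHet-proB than in wt-proB (-3.93 ± 0.16, adjusted p = 1.93e-05). Between leukemias and dHet-proB the change was -1.75 ± 0.43 (adjusted p = 0.0203). Without dHet-proB replicate 1 or 2 the adjusted p of that change was 0.0956 and 0.1. With the 2 undetected leukemia arrays at their lowest detectable level, the leukemia changes were -5.47 against wt-proB and -1.55 against dHet-proB.

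Egr2, which acts with Egr3 in restraining lymphocyte activation, did not follow the order of Junb, Jund and Egr1 (10 spots per array, chr10:67004758-67004817). Its leukemia levels were -4.53 at the lowest, -3.74 at the median and -2.60 at the highest, with 4 of 6 arrays well above background. In dHet-proB it was -5.90 and -5.68, not well above background on either array, and in wt-proB 0.25 and 0.15. Every leukemia array was thus below both wt-proB arrays. All 6 leukemia values also lay above both dHet-proB values, but levels not well above background have no reliable order. The lowest detectable levels of the dHet-proB arrays were -4.02 and -4.09. Replicate 2 of leukemia 713, well above background at -4.27, lay below them, so leukemia 713 is not shown to exceed dHet-proB. Egr2 was 14-fold lower in leukemias than in wt-proB (-3.81 ± 0.48 SE, adjusted p = 0.00141), at least 19.1-fold lower in dHet-proB than in wt-proB (adjusted p = 9.53e-06), and at least 1.37-fold higher in leukemias than in dHet-proB (adjusted p = 0.0137). That last call was lost without dHet-proB replicate 1 or 2 (adjusted p = 0.0844 and 0.0656), with undetected values at the lowest detectable level (0.0902), in the authors' deposited table (0.0776) and with normexp (0.802).

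Egr3 was at the edge of measurement (chr14:70481979-70482038). Its leukemia levels were -6.88 at the lowest, -6.05 at the median and -4.23 at the highest, and those of dHet-proB were -5.01 and -5.95, none of them well above background. In wt-proB it was -2.69 and -2.68, both well above background. Egr3 was at least 2.24-fold lower in leukemias than in wt-proB (adjusted p = 0.000703), and the same comparison for dHet-proB gave at least 2.59-fold with an adjusted p of 0.0501, which did not pass. The second Egr3 probe (chr14:70478827-70478886) was well above background on 0 of 10 arrays and was not tested.

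Atf3, a bZIP factor of the stress response that also pairs with JUN proteins, varied most within leukemias (chr1:192994547-192994606). Its leukemia levels were -6.45 at the lowest, -2.66 at the median and -0.67 at the highest, with 4 of 6 arrays well above background. It was -3.74 and -3.52 in dHet-proB and 1.63 and 1.30 in wt-proB. Leukemia arrays lay on both sides of dHet-proB and all lay below wt-proB. Atf3 was 27.3-fold lower in leukemias than in wt-proB (-4.77 ± 0.62 SE, adjusted p = 0.00154), and its dHet-proB to wt-proB change of -5.09 ± 1.70 did not pass (adjusted p = 0.0651). Slide moved with Atf3: the change against wt-proB was -3.13 with slide 1 leukemia arrays and -6.41 with slide 2 arrays, and with slide as a random block its adjusted p was 0.0803. In leukemia 686 the slide 1 array read -0.67 and the slide 2 array -5.65. The slide 2 arrays of leukemia 686 and of leukemia 760, at -6.45, were not well above background, so the slide 2 change has no reliable size. With both at their lowest detectable level, the Atf3 change over all leukemia arrays against wt-proB was -4.26.

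**Figure D2:**
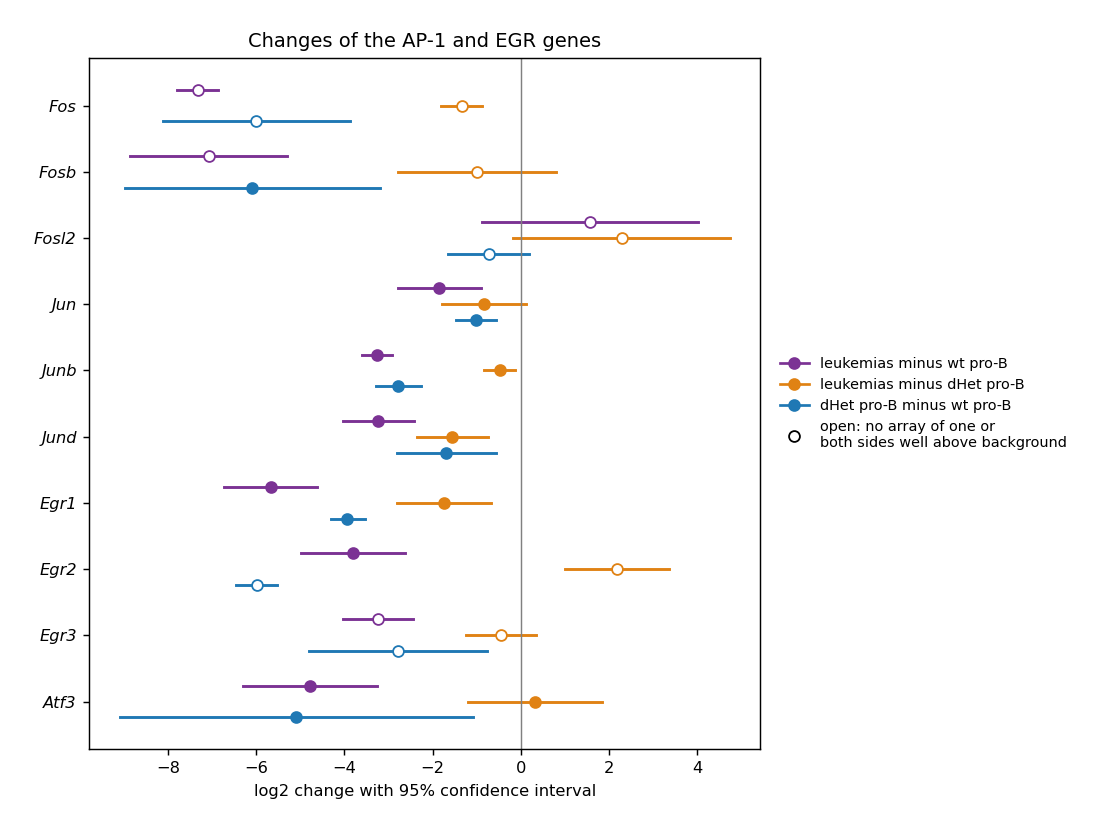
Log2 change of each gene with its 95% confidence interval for leukemias minus wt-proB, leukemias minus dHet-proB and dHet-proB minus wt-proB. Open symbols mark changes in which no array of at least 1 side was well above background, and most of the changes against wt-proB lie left of 0, whereas those against dHet-proB straddle it.

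In dHet-proB against wt-proB, which lay on one slide and one scan day, 7 of the 10 genes fell and none rose, with 14.2% of all genes falling and 15.6% rising. Fos, Fosb, Jun, Junb, Jund, Egr1 and Egr2 passed, and Atf3, Egr3 and Fosl2 did not. At an unadjusted p under 0.05 the counts were 9 lower and 0 higher. Fos and Fosb passed the detection filter only through wt-proB, where they are high. A difference at these 2 genes is therefore built into their being kept. With no filter 5 genes fell in limma's test, and Jun (adjusted p = 0.0635) and Jund (0.12) did not pass. All 10 genes had both dHet-proB arrays below both wt-proB arrays, as did 35.5% of all genes, but for Fosl2 none of these 4 arrays was well above background. The median change was -3.36, against 0.13 over all genes. The number that fell was 4 when dHet-proB replicate 1 was left out and 4 when wt-proB replicate 1 was left out, and it was 2 with normexp background correction in place of the scanner software's.

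In leukemias against dHet-proB, 5 of the 10 genes passed the test, against 46.3% of all genes. Egr2 rose, where 21.8% of all genes rose. Egr1, Junb and Jund fell, where 24.5% of all genes fell, and the same 3 had every leukemia array below both dHet-proB arrays, as did 26.1% of all genes. Fos also passed (adjusted p = 0.00341), but it was not well above background on any array of either group, so neither a fold nor a direction is given. Jun, Fosb, Fosl2, Egr3 and Atf3 did not pass. The median change was -0.66, against -0.06 over all genes. The count of 5 fell to 2 without dHet-proB replicate 1, to 1 without dHet-proB replicate 2 and to 3 without replicate 2 of leukemia 686, and it was 2 with normexp background correction. The comparisons of leukemias and of dHet-proB with wt-proB share the 2 wt-proB arrays, and those of leukemias with either pro-B group share the leukemia arrays.

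The leukemias also differed among themselves at 4 genes, Fosl2, Egr1, Egr2 and Jun, when each was tested against the other 2. With undetected values at the lowest detectable level, only Jun still passed among these 4. Fosl2, kept through leukemia 713 alone and so bound to be high there, was at least 4.42-fold higher in that leukemia (adjusted p = 0.00191, 0.0116 with no filter and 0.0867 with undetected values at that level), and the log2 difference was 2.84 among the slide 1 arrays and 3.39 among the slide 2 arrays. Egr1 was also highest in leukemia 713, at -2.05 and -2.05 against -3.31 and -3.55 in 686 and -3.34 and -3.42 in 760. That was a difference of 1.36 ± 0.14 (SE, adjusted p = 0.00168, and 0.101 with undetected values at the lowest detectable level), with 1.28 on slide 1 and 1.44 on slide 2. On slide 1 Egr1 was not well above background in 686 or 760, so the size of the slide 1 difference is not reliable. Egr2 was highest in leukemia 760, at -2.75 and -2.60, against -3.59 and -3.89 in 686 and -4.53 and -4.27 in 713. The Egr2 difference of leukemia 760 from the others was 1.39 ± 0.17 (adjusted p = 0.00342, and 0.474 with undetected values at the lowest detectable level), with 1.30 on slide 1 and 1.48 on slide 2. On slide 1 Egr2 was not well above background in 686 or 713, and Fosl2 was not in 686 or 760 on either slide.

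Jun was highest in the same leukemia 760, at 2.21 and 2.49, against 1.21 and 1.46 in 686 and 1.03 and 1.11 in 713. Its difference was 1.15 ± 0.17 (adjusted p = 0.00681), with 1.09 on slide 1 and 1.20 on slide 2. The 2 Jun levels of leukemia 760 lay at those of dHet-proB. Leukemia 713 therefore had the highest Egr1 and Fosl2 and the lowest Egr2 and Jun of the 3, and leukemia 760 the highest Egr2 and Jun. The order of Egr2 between 713 and 686 rests on slide 2 alone, where both were well above background. Over all genes, 3.55% differed in leukemia 686, 13.8% in leukemia 713 and 11% in leukemia 760, while 1, 4 and 4 of the 10 members did. With normexp background correction no member passed limma's test after adjustment, and at an unadjusted p under 0.05 there was 1 higher member in leukemia 713 and 1 lower member in leukemia 760. Junb, Jund, Fos, Fosb, Egr3 and Atf3 passed in none of the 3 tests. Jund had differences of 0.69 in leukemia 713 and -0.92 in leukemia 760 that passed with slide as a random block (adjusted p = 0.0347 and 0.0139), and that of leukemia 760 was -0.82 on slide 1 and -1.01 on slide 2. At Junb the 95% intervals of the 3 differences spanned -0.60 to 0.52 on the log2 scale.

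**Figure D3:**
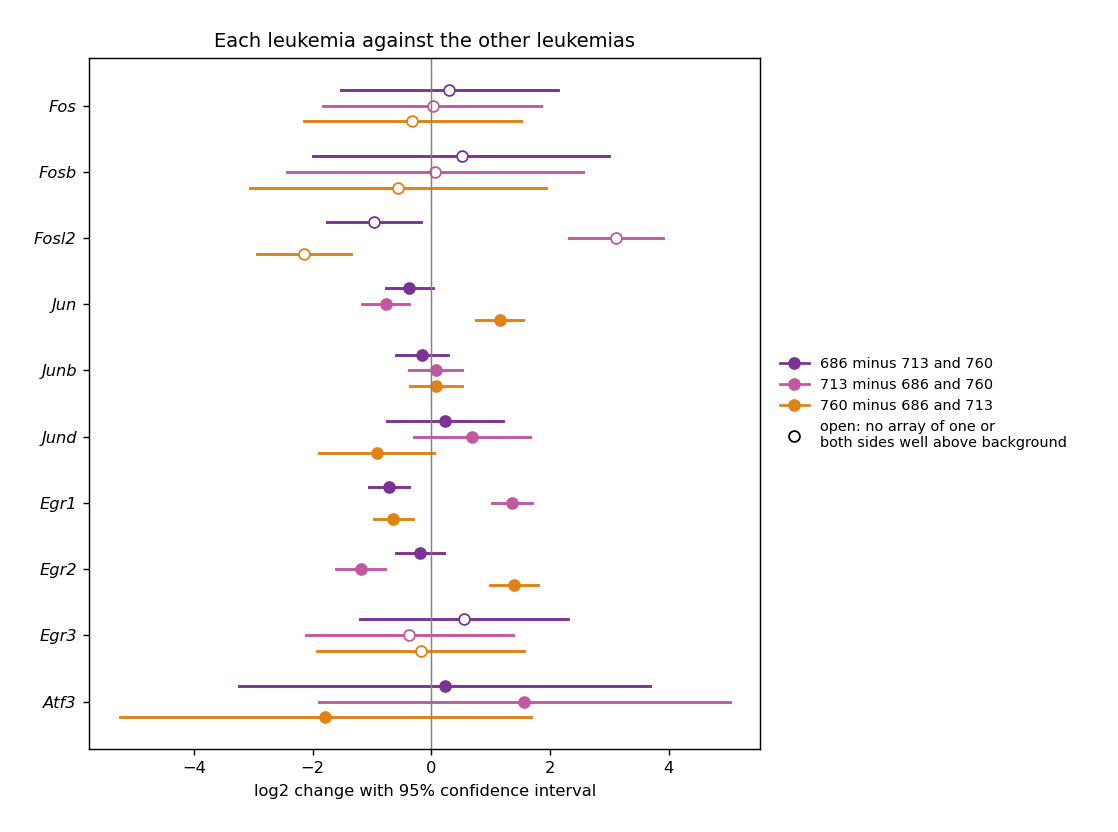
Log2 difference of each leukemia from the mean of the other 2 for the 10 genes, with 95% confidence intervals. Fosl2 and Egr1 of leukemia 713 and Egr2 and Jun of leukemia 760 lie right of 0, and the intervals of Fos, Fosb, Egr3 and Atf3 are the widest.

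Most other immediate early genes also fell against wt-proB. Of 32 such genes tested, 28 fell in leukemias against wt-proB and 1 rose, with a median change of -2.54. Of all genes, 27.6% fell and 31.3% rose there. How many of the 32 passed the detection filter only through wt-proB was not worked out. Plk2, a kinase of the stress response, changed by -4.32 ± 0.26 (SE), Gadd45g, a growth arrest gene, by -3.92 ± 0.35 and Btg2, an antiproliferative gene, by -3.82 ± 0.41 (adjusted p = 0.000262, 0.000516 and 0.000867). Plk2 reached the mark of well above background on just 1 of the 6 leukemia arrays. Myc was the 1 that rose, by 3.40 ± 0.34 in leukemias against wt-proB (adjusted p = 0.000714) and by 4.67 ± 0.34 against dHet-proB (adjusted p = 0.000697). In dHet-proB against wt-proB 22 of the 32 fell and 0 rose, with a median of -1.48, where 14.2% of all genes fell and 15.6% rose. Gadd45g fell by 4.08 and Myc fell by 1.26 on the log2 scale. In leukemias against dHet-proB 13 fell and 4 rose, with a median of -0.46, where 24.5% of all genes fell and 21.8% rose. Plk2 changed there by -3.12 and Btg2 by -2.90, and Gadd45g had a change of 0.16 that did not pass.

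The genes that feed back on MAP kinases split. Of 10 tested, 5 fell and 4 rose in leukemias against wt-proB, beside 27.6% and 31.3% of all genes, with a median of -1.18. The phosphatase gene Dusp10 changed by -3.15 ± 0.39 (adjusted p = 0.00135) and the receptor kinase inhibitor gene Spry2 by -2.96 ± 0.24 (adjusted p = 0.000411, and 0.0534 at its second probe, with a change of -1.06). Dusp16 changed by -3.53 at a probe detected on just 1 of the 6 leukemia arrays, and by -1.47 and -1.70 at its other probes. Spry1 rose by 1.93 ± 0.48 (adjusted p = 0.0164) and by 3.20 ± 0.48 against dHet-proB (adjusted p = 0.00413). Spred1 rose by 2.08 and Dusp4 by 1.18 at their brightest probes, while other probes of the 2 genes gave 0.84 and 0.07, and -0.87, and did not pass. In dHet-proB against wt-proB 5 fell and 3 rose, with a median of -1.24. In leukemias against dHet-proB 1 fell and 2 rose, with a median of 0.24.

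Kinases and factors upstream of these promoters moved in both directions. Of 26 tested, 10 rose and 5 fell in leukemias against wt-proB, where 31.3% of all genes rose and 27.6% fell, with a median of 0.25 and no change beyond 1.80 in size on the log2 scale. The GTPase gene Hras rose by 1.6 ± 0.15, the kinase gene Rps6ka4 by 1.44 ± 0.31 and Elk3, a partner of serum response factor, by 1.12 ± 0.15. Mapk8, which encodes JNK1, fell by 1.80 on the log2 scale at its brightest probe, and its other 3 probes gave -1.35, -0.58 and -0.63, of which -0.58 did not pass (adjusted p = 0.063). Map2k6 fell by 1.30, and Mrtfb, a coactivator of serum response factor, was at least 1.2-fold lower. Mrtfb was well above background on both wt-proB arrays and on no other array. It therefore passed the detection filter only through wt-proB, and a difference is built into its being kept. The counts were 6 higher and 5 lower in leukemias against dHet-proB (median 0.09) and 3 higher and 2 lower in dHet-proB against wt-proB (median 0).

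Among 17 other bZIP factors tested, 5 fell and 4 rose in leukemias against wt-proB, where 27.6% of all genes fell and 31.3% rose, with a median of -0.25. Bach2, a B-lineage repressor that binds AP-1-like elements, fell by 3.97 on the log2 scale (SE 0.29, adjusted p = 0.000336), Maf by 2.03 and Atf6 by 1.17. Jdp2, a repressive partner of JUN, rose by 2.88 ± 0.86 (adjusted p = 0.0303), Batf by 1.67 ± 0.38, and Batf2 was at least 3.31-fold higher. Batf2 was well above background only in leukemias 713 and 760, so a high level there is built into its being kept. Its levels were -2.16 and -4.85 in leukemia 686 and -5.31 and -4.45 in wt-proB, none well above background. Jdp2 levels were 2.29 and 1.89 in leukemia 713, 0.12 and -0.19 in 686 and -0.68 and -1.38 in 760, against -2.52 and -2.85 in dHet-proB and -2.57 and -2.50 in wt-proB. Leukemia 713 had the highest Jdp2, a difference that was not tested. The counts were 4 higher and 3 lower in leukemias against dHet-proB (median -0.04) and 3 higher and 3 lower in dHet-proB against wt-proB (median -0.12). Of 4 other EGR family and co-repressor genes only Nab1, an EGR co-repressor, was kept: its change was 0.43 in leukemias against wt-proB (adjusted p = 0.201), -0.92 ± 0.26 against dHet-proB (adjusted p = 0.0326) and 1.35 ± 0.26 in dHet-proB against wt-proB (adjusted p = 0.00968).

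Heat shock genes, which respond to cell dissociation and stress, moved in both directions. Of 10 tested, 5 rose and 2 fell in leukemias against wt-proB, beside 31.3% and 27.6% of all genes, with a median of 0.80. The mitochondrial chaperone genes Hspd1 and Hspe1 rose by 2.39 and 1.67 and Hsp90aa1 by 1.23, whereas the inducible Hspa1a and Hspa1b fell. Hspa1a was detected on 2 of the 6 leukemia arrays and Hspa1b on 1, and with the other arrays at their lowest detectable level the changes were -3.18 and -1.71. In leukemias against dHet-proB 5 rose and 2 fell (median 0.55), and in dHet-proB against wt-proB 1 rose and 1 fell (median -0.07). The part of dissociation or sorting in the members' levels was not tested.

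**Figure D4:**
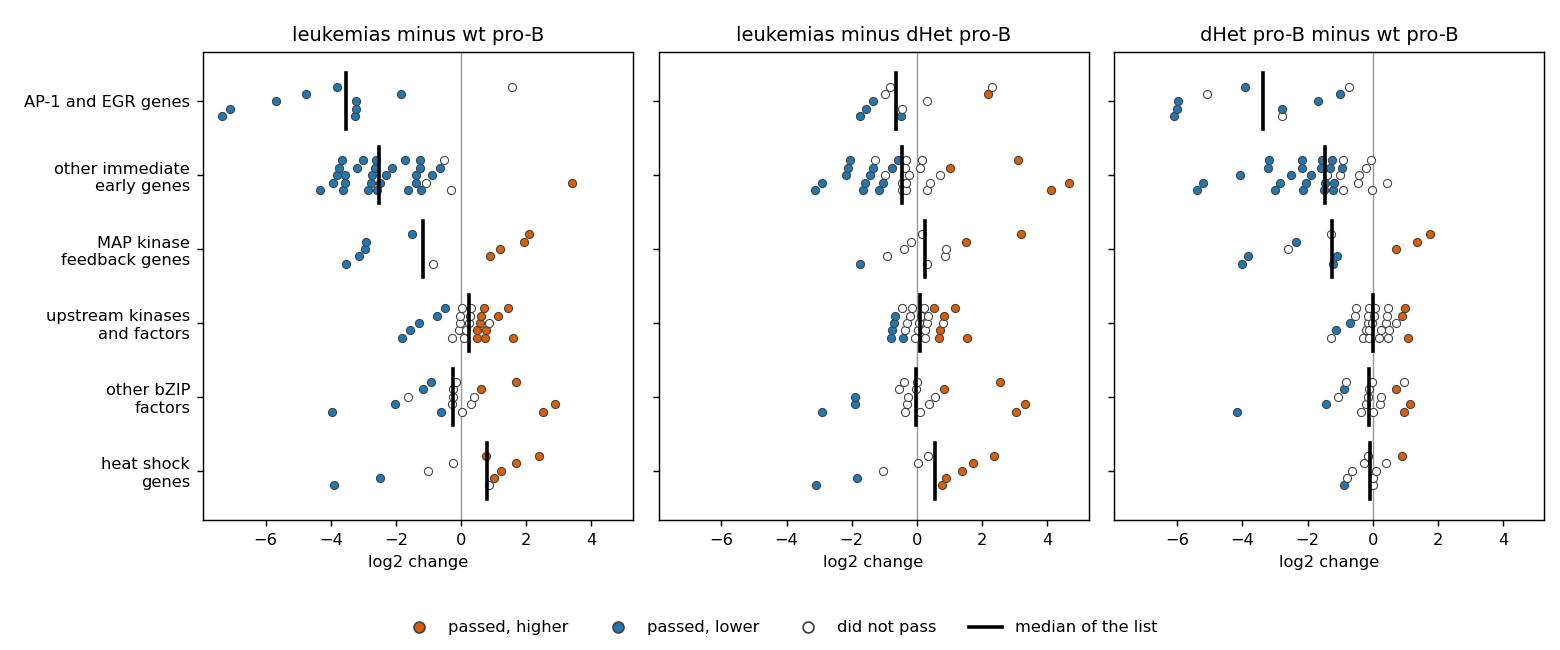
Log2 change of every gene tested in the members' list and in 5 related lists, for leukemias minus wt-proB, leukemias minus dHet-proB and dHet-proB minus wt-proB, with a bar at each list's median. Orange points rose, blue points fell and white points did not pass; the members' median is -3.54, -0.66 and -3.36 in the 3 comparisons.

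Marker genes of other cells differed between the groups too. Of 16 myeloid markers 6 to 13 were well above background on a leukemia array, 6 and 7 in dHet-proB and 13 on both wt-proB arrays, and their summed linear level, in units of the array's 75th percentile, was 15.3 to 148 in leukemias, 31.9 to 32.9 in dHet-proB and 82.9 to 160 in wt-proB. The neutrophil granule genes Camp, Ngp and Ltf were detected on 1, 3 and 2 of the 6 leukemia arrays, on no dHet-proB array and on both wt-proB arrays, with mean wt-proB levels of 0.85, 0.03 and 0.80. Lyz1, Lyz2 and Csf1r went the other way, with mean levels of 2.64, 5.21 and -0.66 in leukemias against 1.25, 3.94 and -3.52 in wt-proB. Elane, Cd14 and Csf3r were not well above background on any array. Summed T-cell markers were 14.7 to 68.3 in leukemias, 11.1 to 14.8 in dHet-proB and 4.35 to 4.68 in wt-proB, with 6 to 8, 4 to 5 and 5 to 6 of 10 well above background and Cd4 and Cd28 on no array. NK markers summed to 18.8 to 44.3, 1.46 to 2.13 and 2.09 to 2.72, with 3 to 6, 4 and 4 to 5 of 7 well above background, in the same order of groups. Erythroid markers summed to 1.74 to 156, 0.124 to 0.217 and 2.03 to 2.94 (2 to 3, 0 and 3 of 5), and stromal and endothelial markers to 1.30 to 2.83, 4.06 to 4.30 and 4.03 to 5.24 (2 to 4, 3 and 5 to 6 of 9). The part of these cells in the members' levels was not tested.

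The 10 member genes did not share one profile equally. Against their mean centred profile over the 10 arrays, r was 0.987 for Fos, 0.973 for Fosb, 0.968 for Junb, 0.937 for Egr1, 0.932 for Egr3, 0.902 for Atf3 and 0.9 for Jund, and lower for Egr2 (0.776), Jun (0.688) and Fosl2 (-0.199). Each gene contributes to that mean, and the 10 arrays share the step between wt-proB and the rest. Among all other genes the closest profiles were those of Nrf1 (r = 0.991), which encodes a regulator of mitochondrial genes, and Nfkb2 (r = 0.985), an NF-κB subunit gene. Both were well above background on all 10 arrays, with log2 changes of -1.90 and -2.29 in leukemias against wt-proB and -1.68 and -2.10 in dHet-proB against wt-proB. The next 8 were Col5a3, Reln, Eya1, Cacna2d1, Gprc5b, Slc36a4, LOC552903 and the unnamed probe A_51_P395309, with r between 0.977 and 0.985, and each was well above background on 2 arrays.

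With each array's median subtracted in place of its 75th percentile, the median change over all genes in leukemias against wt-proB was 0.63 in place of 0.06, and 73.5% of the calls were higher in place of 53.1%. With the percentile taken over probes detected on all arrays the values were -0.30 and 35%. The corresponding shares of higher calls were 62.3% in place of 47% for leukemias against dHet-proB with the array median, and 63.4% and 39.3% in place of 52.4% for dHet-proB against wt-proB with the 2 settings. The 9 genes that fell in leukemias against wt-proB had negative changes under each of these scalings. With the array median, the calls of Jun (adjusted p = 0.212) and Jund (0.0697) in dHet-proB against wt-proB and of Junb (0.399) in leukemias against dHet-proB were lost.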

How the data were processed

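Total RNA of 10 samples was labelled with Cy3 and hybridised to one-colour Agilent arrays. The deposited intensity values were written by Feature Extraction 10.5.1.1, per the file headers (9.1 in the submitters' processing notes). Within each array this software had removed a detrended background and put surrogates in place of the lowest intensity values, so levels of spots not well above background have no reliable order. The authors also deposited a table of log2 values, whose columns share a distribution. Its background step is not given in the sources used here, and it served as an alternative.

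Levels were log2 of the processed signal minus the array's 75th percentile, averaged over spots of a probe without outlier flags. Probes detected well above background on both arrays of any group were kept (22300 of 41174), and a gene was read at its brightest kept probe (14455 genes). The tests were limma's (version 3.58.1, R 4.3.3), two-sided, with Benjamini-Hochberg adjustment over all kept probes and a threshold of 0.05. Leukemias were compared with each pro-B group over 3 mouse means and 2 arrays each (4 residual degrees of freedom). The pro-B groups were compared with each other, and each leukemia with the other 2, over all 10 arrays (5 residual degrees of freedom). A bound applies where a side has no array well above background. Each array of that side is set at the higher of its own level and the array's lowest level well above background. Undetected arrays of the other side keep their own level. For this reason the bounds of Egr2 against dHet-proB and of Batf2 against wt-proB in leukemias are not strict. The number of arrays limits the precision.

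The members and the related gene lists were chosen with earlier results of these data known. Of each related list, the 3 genes with the largest rise and the 3 with the largest fall in leukemias against wt-proB were named, where that many passed, with their values in the other comparisons. The 10 genes whose profiles were most like the members' mean were named too. Other background corrections, scalings, filters, blocks and left-out arrays were tried. Analyses of the leukemia arrays of 1 slide at a time were chosen after seeing the data.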

Additional observations from a re-analysis of the deposited data

Results flagged for a closer look

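At 4 genes a leukemia differed from the other 2 by limma's test of that difference. In leukemia 713 the log2 difference was 3.11 for Fosl2 (adjusted p = 0.00191) and 1.36 for Egr1 (0.00168), and it was -1.19 for Egr2 (0.00532) and -0.77 for Jun (0.0257). In leukemia 760 it was 1.39 for Egr2 (0.00342) and 1.15 for Jun (0.00681), and it was -2.15 for Fosl2 (0.00911) and -0.64 for Egr1 (0.0323). In leukemia 686 it was -0.71 for Egr1 (0.0476). The differences of a gene come from the same 3 leukemia levels, so the 9 are not separate results. Mean Egr1 levels were -3.43 in leukemia 686 and -3.38 in leukemia 760, and both of their calls rest on the higher level of 713. Fosl2 was not well above background on any array of leukemia 686 or 760. On slide 1 Egr1 was not well above background in leukemia 686 or 760, nor was Egr2 in leukemia 686 or 713. All 9 differences had the same direction among the slide 1 arrays and among the slide 2 arrays. Of the smallest, that of Egr1 in leukemia 760 did not pass under 14 of 23 alternative settings and turned round under 1 more, that of Egr1 in leukemia 686 did not pass under 16 of 23, and that of Jun in leukemia 713 under 11 of 24.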

How the results depend on the processing

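The count of 9 genes in leukemias against wt-proB was 8 to 10 under every setting with all 10 genes tested. Where it was 10, 9 genes fell and 1 rose. With only probes well above background on all 10 arrays it was 3 of 3 tested, and leaving out 1 array or mouse gave 8 to 9. For leukemias against dHet-proB the count of 5 became 2 with normexp background correction, 3 in the authors' deposited table, 2 of 3 with probes well above background on all arrays and 3 with undetected values at the lowest detectable level, and 1 to 7 with 1 array or mouse left out. For dHet-proB against wt-proB the count of 7 became 2 with normexp, 5 with no detection filter and 3 of 3 with probes well above background on all arrays. It was 4 to 9 with 1 array left out. For each leukemia against the others the count of 4 became 0 with normexp, 1 with probes well above background on all arrays, 1 with undetected values at the lowest detectable level and 7 with the slide 1 leukemia arrays alone, a setting chosen after seeing the data in which the lone array of a leukemia is assumed to vary like the other groups, and it was 3 to 4 with 1 array left out. At an unadjusted p under 0.05 normexp and limma left 1 higher gene in leukemia 713 and 1 lower gene in leukemia 760. With normexp the differences of Egr1 and of Fosl2 in leukemia 760 turned to 0.42 and 0.42, and with undetected values at the lowest detectable level the Fos change in leukemias against dHet-proB turned to 0.21. The causes were not tested, except that fewer genes were tested with probes detected everywhere. With the array median subtracted, 23.6% of the calls in leukemia 686 were higher in place of 42.3%.

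Replicate numbers did not pair the samples: deviations of same-numbered arrays correlated at 0.44 to 0.633 between leukemias, which share slides, and at -0.04 to 0.076 in the other pairs of groups. With the number as a replicate block over arrays, 10, 6, 9 and 4 genes were called in the 4 sets of tests, in the order given above. The 10 were 9 lower and 1 higher, and the 6 were 4 lower and 2 higher. With slide as a random block (correlation 0.652), 8 and 4 genes were called in leukemias against wt-proB and against dHet-proB, and 5 for each leukemia against the others. Levels of Fos, Fosb and Egr3 outside wt-proB are limited by the background of the arrays.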

Other observations

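Low signals of the opposite sex appeared on slide 1 only among the leukemias. Xist was well above background at -1.26 on replicate 1 of leukemia 686 and at -2.51 on replicate 1 of leukemia 713, which carried Eif2s3y at 1.90 and 2.27, and it was not well above background on their replicates 2, at -6.83 and -6.78. In leukemia 760, which carried Xist at 3.59 and 4.48, Eif2s3y was well above background at -2.64 on replicate 1 and not on replicate 2, at -6.38. The dHet-proB arrays read 2.42 and -6.15 for Eif2s3y and -5.96 and 5.17 for Xist. The part of such signals in the members' slide 1 levels was not tested.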
